A study of Mus musculus with 153 samples.

Results

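The 10 immediate early genes described here are Fos, Fosb, Jun, Junb, Egr1, Ier2, Ier3, Atf3, Dusp1 and Zfp36, out of 18810 genes measured in mouse tail skin. They were taken by name, and each was read by a single probe set of the array. The animals came from a cross between Mus spretus and FVB/N. Females of the first generation, born to FVB/N mothers that were Hras-/-, were bred to FVB/N males that were Hras-/- or Hras-/+. Hras encodes a small GTPase that passes growth factor signals to the MAP kinase pathway. The offspring in this data set carried either both working copies of Hras (WT) or 1 (HET), and the labels do not say which parent gave a HET mouse its working copy. Tail skin of each mouse was frozen at 8 weeks of age without any treatment, and 1 array was run per mouse on 1 of 3 plates.

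The data comprised 153 mice. For 2 of them, WT males of plate 2, the array carries an outlier label and was not used. The values below come from the remaining 62 WT males, 52 WT females, 19 HET males and 18 HET females, and SDs and SEs are over all mice of the groups named. Plates 1, 2 and 3 held 49, 46 and 56 of them, with 9, 10 and 18 HET mice. Values are log2 expression after RMA, which subtracts background, brings the arrays to a common distribution and combines the probes of each set. Array medians lay between 4.67 and 4.89. Keratin genes of the epidermis were among the bright probe sets on every array, with Krt5 between 11.59 and 12.15 and Krt10 between 12.03 and 12.36, against upper quartiles of 6.61 to 6.90. Levels of the 10 members are not ranked against each other, since each probe set binds with its own strength. The genotype labels were not checked against the Hras transcript.

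Immediate early genes are transcribed within minutes of a signal, without the need for new protein synthesis. Growth factors, stress or injury activate MAP kinases, which phosphorylate factors such as SRF partners and CREB that are already bound at the promoters. The mRNAs are short-lived, so their level follows recent signalling. In skin the pathway is known for its response to wounding, ultraviolet light and tumour promoters. Fos, Fosb, Jun and Junb encode subunits of the transcription factor AP-1, and Atf3 encodes a related stress-induced factor that can pair with Jun proteins. Egr1 encodes a zinc finger transcription factor. Ier2 and Ier3 encode a nuclear protein and a protein that modulates cell survival. Dusp1 and Zfp36 encode inhibitors: Dusp1 is a phosphatase that inactivates MAP kinases, and Zfp36 (tristetraprolin) binds AU-rich mRNAs and promotes their decay.

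Promoter sequences are shown for 6 members on which the correlations between mice described further on turn: Fos with Dusp1 and Zfp36, the members that followed it most closely, the pair Fosb and Atf3, and Jun, which varied least with the rest. They are the 250 bases before the annotated start, read 5′ to 3′ on the gene's strand, from RefSeq (GRCm38.p6). Windows of 300 bases (250 before the start and 50 after it) were given for 8 of the 10 members. Capitals mark the cyclic AMP response element TGACGTCA, its core TGACG, the AP-1 site TGANTCA, the CArG box bound by SRF and the TATA box TATAAA, searched on both strands. The printed stretches lie at chr12:85473640-85473889 (plus strand) for Fos, chr17:26508473-26508722 (minus) for Dusp1, chr7:28379229-28379478 (minus) for Zfp36, chr7:19310046-19310295 (minus) for Fosb, chr1:191183334-191183583 (minus) for Atf3 and chr4:95052223-95052472 (minus) for Jun.
Fos: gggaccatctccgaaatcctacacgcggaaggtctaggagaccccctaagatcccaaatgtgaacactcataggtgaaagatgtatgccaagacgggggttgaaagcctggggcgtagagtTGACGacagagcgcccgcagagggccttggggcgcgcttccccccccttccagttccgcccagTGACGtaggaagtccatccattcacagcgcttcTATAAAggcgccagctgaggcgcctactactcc
Dusp1: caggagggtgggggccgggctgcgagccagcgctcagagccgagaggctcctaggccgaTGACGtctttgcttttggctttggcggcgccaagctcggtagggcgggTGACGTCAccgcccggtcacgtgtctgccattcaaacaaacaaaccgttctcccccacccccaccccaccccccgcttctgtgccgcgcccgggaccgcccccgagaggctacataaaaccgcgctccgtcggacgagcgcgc
Zfp36: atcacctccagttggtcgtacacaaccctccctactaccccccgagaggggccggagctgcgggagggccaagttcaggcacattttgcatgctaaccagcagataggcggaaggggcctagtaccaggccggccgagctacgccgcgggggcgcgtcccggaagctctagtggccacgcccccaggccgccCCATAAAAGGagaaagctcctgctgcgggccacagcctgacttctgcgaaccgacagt
Fosb: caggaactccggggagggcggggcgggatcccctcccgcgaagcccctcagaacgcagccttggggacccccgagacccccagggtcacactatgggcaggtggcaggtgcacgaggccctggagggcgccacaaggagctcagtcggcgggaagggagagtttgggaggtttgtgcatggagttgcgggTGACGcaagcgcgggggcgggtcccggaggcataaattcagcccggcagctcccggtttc
Atf3: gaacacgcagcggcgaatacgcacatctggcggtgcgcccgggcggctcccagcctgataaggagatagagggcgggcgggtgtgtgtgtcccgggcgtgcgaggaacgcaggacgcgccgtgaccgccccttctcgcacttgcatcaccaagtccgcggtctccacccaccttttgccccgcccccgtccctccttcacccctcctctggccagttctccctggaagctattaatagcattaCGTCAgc
Jun: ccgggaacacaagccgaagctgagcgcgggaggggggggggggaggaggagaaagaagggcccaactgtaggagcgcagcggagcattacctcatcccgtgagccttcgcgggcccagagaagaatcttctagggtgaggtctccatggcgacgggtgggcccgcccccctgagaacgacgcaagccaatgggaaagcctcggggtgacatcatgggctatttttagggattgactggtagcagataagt

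The core TGACG was found in 5 of the 8 windows and in 20.8% of all 32851 promoter windows of the same length. In Fos it begins 129 and 66 bases before the start, with the TATA box at 33 bases before it. In Dusp1 a full TGACGTCA, which holds the core on both strands, begins 143 bases before the start, and a further core begins 191 bases before it. The full element was found in 1.79% of all windows. Fosb has a core 60 bases and Atf3 one 7 bases before the start. The CArG box was found in Zfp36 alone of the 8, at 58 bases before the start, and in 1.63% of all windows. TGANTCA was in none of the 8 windows and in 7.81% of all windows. TATAAA was in 2 of the 8 (Fos and Junb) and in 13.6% of all. In Junb it begins at the annotated start and not before it. A match describes letters in this window and is not evidence of binding.

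The members differed widely in how far they varied between mice. Fosb ranged from 4.79 through a median of 6.0 to 9.78, so that the highest mouse stood 13.8-fold above the median. Atf3 ranged from 4.38 through 5.13 to 8.01 (7.38-fold above the median), and Fos from 4.19 through 5.41 to 8.25 (7.17-fold). In all 3 the bulk of mice lay close together at the low end, with a tail of mice far above. Dusp1 ranged from 8.07 through 9.02 to 10.40 and Egr1 from 6.94 through 7.71 to 9.28. Jun ranged only from 8.12 through 8.58 to 9.34, Junb from 6.45 through 6.82 to 7.76, Ier2 from 4.59 through 5.14 to 6.14, Ier3 from 4.62 through 5.24 to 6.09 and Zfp36 from 6.55 through 7.01 to 7.83.

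**Figure D1:**
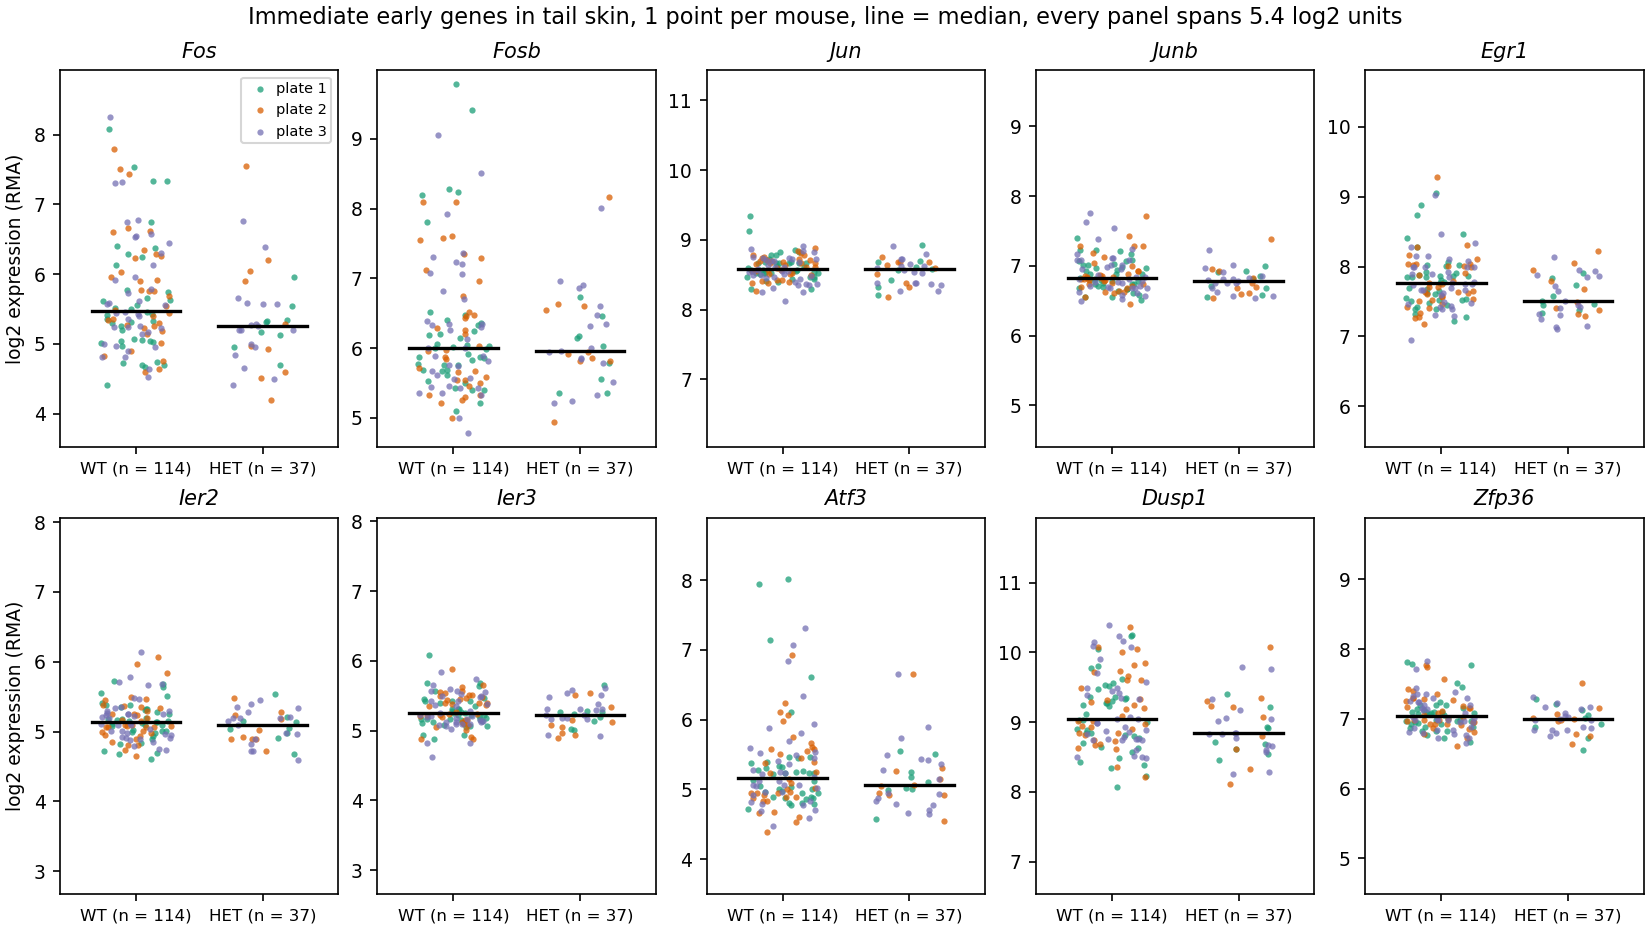
Log2 expression of each of the 10 genes (vertical axis, RMA) in WT and HET mice, with 1 point per mouse coloured by plate and a line at the group median. Fos, Fosb and Atf3 have a tail of high mice on every plate, while Jun stays between 8.12 and 9.34.

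After removal of genotype, sex and plate, the SD between mice was 0.90 for Fosb, larger than that of 99.6% of all genes, 0.77 for Fos (99.3%), 0.61 for Atf3 (98.4%), 0.51 for Dusp1 (97.1%) and 0.37 for Egr1 (91.7%). The median SD over all genes was 0.22. Ier2 (0.28), Zfp36 (0.24), Junb (0.24) and Ier3 (0.23) lay between the 55.1 and 76.2 percentiles, and Jun (0.18) at 27.2. More than 2-fold above the median were 25 mice for Fosb, 22 for Fos, 13 for Dusp1, 12 for Atf3, 5 for Egr1 and 1 for Ier2, and none for the other 4 genes. More than 2-fold below the median were 3 mice for Fosb and 1 for Fos. The distributions were skewed upwards, with a skewness of 1.85 for Atf3 and 1.32 for Fosb against a median of 0.040 over all genes.

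The mice with high Fos were largely those with high levels of the other members. The mouse with the highest Fos (8.25), a WT male on plate 3, also had the highest Junb (7.76), Ier2 (6.14) and Zfp36 (7.83). Counted from the highest mouse, it ranked 3 for Egr1, 4 for Fosb and 5 for Atf3 and for Dusp1, but 12 for Jun and 16 for Ier3. The next highest Fos (8.07) was in a WT male on plate 1 that had the highest Ier3 (6.09) and ranked 24 for Ier2. The third, a WT male on plate 2 with Fos at 7.79, had the highest Egr1 (9.28) and ranked 25 for Atf3 (5.60). The mouse with the lowest Fos (4.19), a HET female on plate 2, ranked 150 for Dusp1 and 148 for Atf3, but 84 for Fosb and 71 for Jun.

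A further WT male on plate 1, which ranked 8 for Fos, had the highest Fosb (9.78), Atf3 (8.01) and Jun (9.34). The highest Dusp1 (10.40) was in a WT female on plate 3 that ranked 20 for Fos. Of the 15 mice highest in Fos, 12 were also among the 15 highest for Egr1 and 12 for Zfp36, 10 for Atf3 and 10 for Dusp1, 9 for Fosb and 9 for Junb, 8 for Ier2, and 6 for Jun and 6 for Ier3. The largest overlap was 13 of 15, reached both by Fosb with Atf3 and by Egr1 with Zfp36. The 15 mice highest in Fos came from every plate (5, 4 and 6 mice) and comprised 13 WT and 2 HET mice, and 11 males and 4 females. The arrays labelled as outliers had Fos at 4.95 and 6.59 and Dusp1 at 8.54 and 9.09, within the range of the other mice.

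The genotype comparison asked whether these targets of MAP kinase signalling differ in skin with 1 working copy of Hras. All 10 members had a lower mean in HET than in WT mice, and none passed the test (limma, Benjamini-Hochberg adjusted p under 0.05 over all genes). Over all genes 0.112% passed it, and 50.1% had a lower mean in HET mice. Fos was between 4.41 and 8.25 in WT mice (median 5.47) and between 4.19 and 7.54 in HET mice (median 5.25). Its means were 5.70 ± 0.82 (SD, all WT mice) and 5.32 ± 0.67 (SD, n = 37), and the fitted difference was -0.38 ± 0.15 (SE, 95% interval -0.67 to -0.09, limma adjusted p = 0.58), or 1.30-fold. The ranges overlapped over nearly their whole length.

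Egr1 was between 6.94 and 9.28 in WT mice (median 7.76) and between 7.11 and 8.23 in HET mice (median 7.50), a fitted difference of -0.21 ± 0.07 (SE) with the smallest adjusted p of the 10 (limma, 0.47). Dusp1 was between 8.07 and 10.40 in WT mice (median 9.05) and between 8.11 and 10.08 in HET mice (median 8.84), a difference of -0.26 ± 0.10 (SE). The differences were -0.10 ± 0.05 (SE) for Zfp36 and -0.10 ± 0.05 (SE) for Junb. These 5 genes had an unadjusted p under 0.05 (3.31% of all genes were lower in HET mice at that level). The other 5 lay between -0.15 (Atf3) and -0.04 (Jun). Fosb, the most variable member, differed by -0.13 ± 0.17 (SE), with a 95% interval from -0.46 to 0.21.

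On plates 1, 2 and 3 alone, the difference was -0.35, -0.29 and -0.43 for Fos, -0.25, -0.12 and -0.24 for Egr1, and -0.26, -0.18 and -0.29 for Dusp1. The sign held for these 3 genes on every plate, with unadjusted p-values of limma under 0.05 on plate 3 only. Since the 10 genes vary together between mice, their shared sign is not 10 separate observations. Among 53 other rapid response genes measured, such as Nr4a1 and Myc, 41 had a lower mean in HET mice, with a median difference of -0.05 and 0 called (11 at an unadjusted p under 0.05). In whole skin, fewer cells of a type and less RNA per cell cannot be told apart. All 9 measured markers of macrophages and dendritic cells also had a lower mean in HET mice (median difference -0.15, 2 at an unadjusted p under 0.05 and 0 called), their average running from 5.45 to 7.52 in WT and from 5.14 to 7.07 in HET mice. The same held for 9 hair shaft markers (median difference -0.26, average 7.27 to 10.71 in WT and 7.66 to 10.48 in HET mice). It also held for 7 mast cell markers (median difference -0.08) and 2 red cell markers (-0.12). By contrast, 0 of 6 melanocyte markers (median difference 0.10) and 0 of 6 differentiated keratinocyte markers (0.03) had a lower mean in HET mice. The other cell type lists were mixed in sign. The lowest mean of a marker was 4.12 among macrophage and dendritic, 4.50 among mast cell, 4.93 among red cell and 6.17 among hair shaft genes. The lower quartiles of the arrays were 3.02 to 3.20. The part of these cells in the values above was not tested.

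**Figure D2:**
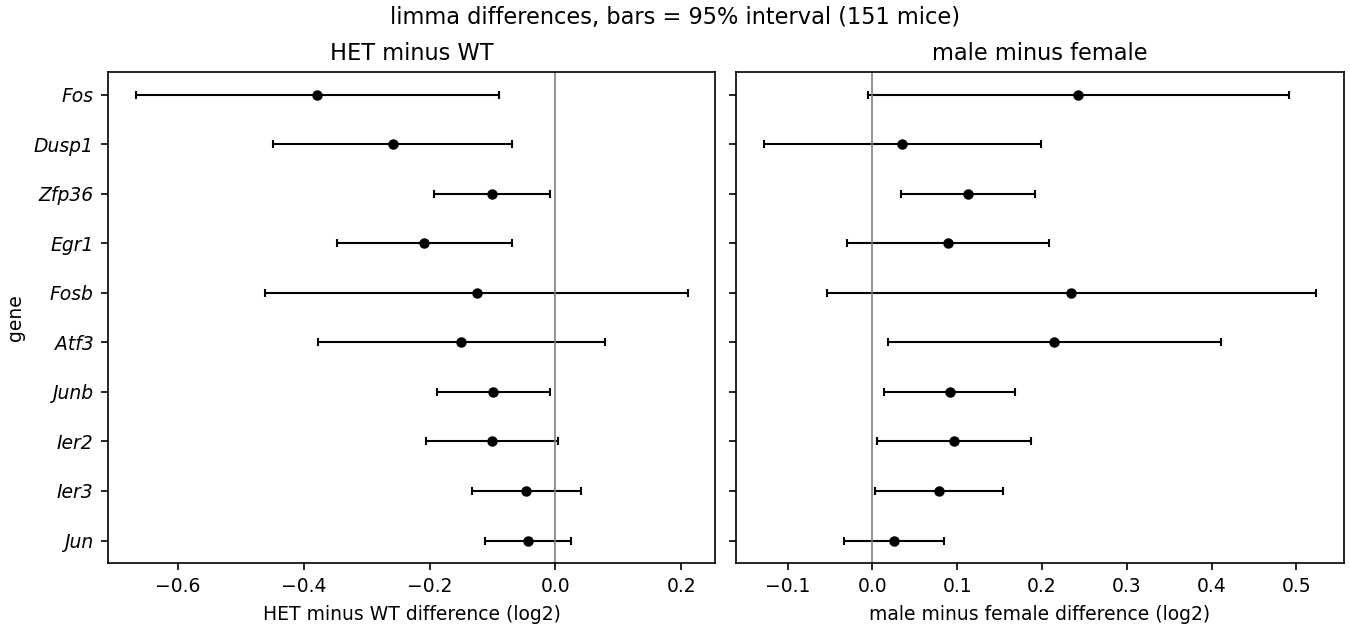
Fitted HET minus WT difference (left) and male minus female difference (right) of each gene on the log2 scale, with bars for the 95% interval. All HET minus WT values lie below 0, and all male minus female values lie above 0, with no gene past the adjusted threshold in either panel.

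Males had a higher mean than females for all 10 genes, again with none called (3.62% of all genes were). Over all genes 55.1% had a lower mean in males. As for genotype, the shared sign of genes that vary together is not 10 separate observations. Zfp36 had a mean of 7.12 ± 0.28 (SD, n = 81) in males and 7.01 ± 0.21 (SD, n = 70) in females, a fitted difference of 0.11 ± 0.04 (SE, limma adjusted p = 0.098). The differences were 0.09 ± 0.04 (SE) for Junb, 0.21 ± 0.10 (SE) for Atf3, 0.10 ± 0.05 (SE) for Ier2 and 0.08 ± 0.04 (SE) for Ier3. These 5 had an unadjusted p under 0.05 (5.61% of all genes were higher in males at that level). Fos had a mean of 5.72 ± 0.90 (SD, n = 81) in males and 5.48 ± 0.65 (SD, n = 70) in females, a difference of 0.24 ± 0.13 (SE). That difference was 0.01 on plate 1, 0.76 on plate 2 and 0.02 on plate 3, so it rested on plate 2 (limma adjusted p = 0.093 there). Dusp1 differed by 0.04 ± 0.08 (SE), with a negative sign on plates 1 and 3. Cell type markers also differed between the sexes. Of 7 mast cell markers 4 were called lower in males (Kit, Cpa3, Mcpt4 and Ms4a2; 2.51% of all genes were called lower and 1.1% higher), with a median difference of -0.19 over the list. The mast cell average ran from 5.37 to 7.07 in males and from 5.47 to 7.15 in females. Of 6 Langerhans cell markers 2 were called lower (Cd74 and H2-Ab1, list median -0.17), as were 2 of 7 adipocyte markers (Adipoq and Fabp4, list median -0.22). Of 8 fibroblast markers 3 collagen genes were called higher and Lum lower (list median -0.08). Of 5 neutrophil markers S100a8 was called higher (list median 0.30), and of 9 hair shaft markers Krt25 lower (list median -0.30). Of 7 sebaceous gland markers Scd3 and Elovl3 were called higher and Awat2 lower (list median 0.01). Krt14 of the basal and Krt1 of the differentiated keratinocyte markers were called higher (list medians 0.01 and 0.03). Tagln of the smooth muscle and Il7r of the T cell markers were called lower (list medians -0.21 and -0.04). Langerhans averages ran from 6.48 to 7.60 in males and from 6.59 to 7.70 in females, adipocyte averages from 4.40 to 5.94 and from 4.66 to 6.17, and fibroblast averages from 8.13 to 9.66 and from 8.38 to 10.08. The lowest mean of any marker was 2.79 among adipocyte, 4.49 among Langerhans, 4.50 among mast cell and 6.57 among fibroblast genes. It was 2.22 among T cell, 3.07 among sebaceous gland and 3.41 among neutrophil genes. The part of these cells in the values of the 10 genes was not tested.

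No member was called as different between plates (0.0213% of all genes were, and 0.808% had an unadjusted p under 0.05), and none showed a genotype by sex interaction (0.0% of all genes by limma, with 895 genes at an unadjusted p under 0.05). Ier3 was the sole member with an unadjusted interaction p under 0.05, at -0.18 ± 0.09 (SE). The spread between mice, taken as the absolute deviation from the fitted value, had a lower mean in HET than in WT mice for 9 of the 10 genes. None was called (0.0106% of all genes were), and 56.8% of all genes also had the lower mean in HET mice. The difference in absolute deviation was -0.21 ± 0.11 (SE) for Fosb, -0.13 ± 0.09 (SE) for Fos and -0.07 ± 0.03 (SE) for Junb.

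Across mice, 8 of the 9 other members rose and fell with Fos. In the fit of every gene on the Fos level with genotype, sex and plate as covariates, these 8 had a positive slope that was called by limma, while 0.782% of all genes had a positive call and 0.521% a negative one. Dusp1 followed Fos most closely, with a partial correlation of r = 0.83 (rho = 0.80) and a slope of 0.55 log2 units per log2 unit of Fos. The correlation was 0.83, 0.82 and 0.84 on plates 1, 2 and 3, and 0.82 when the 2 mice with the most extreme Fos were left out. Zfp36 followed with r = 0.76 (rho = 0.69) and a slope of 0.24, and Egr1 with r = 0.72 (rho = 0.63) and a slope of 0.35. Atf3 had r = 0.65 (rho = 0.58) and Fosb r = 0.62 (rho = 0.53), with the largest slope of the 9 at 0.72. Junb had r = 0.61 (rho = 0.51), Ier2 r = 0.53 (rho = 0.44) and Ier3 r = 0.37 (rho = 0.26, limma adjusted p = 0.0021).

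Jun was the exception. Its correlation with Fos was 0.16 (rho = 0.064, limma adjusted p = 0.35), with 0.42 on plate 1, -0.001 on plate 2 and 0.14 on plate 3. It was 0.26 in WT (rho = 0.13) and -0.19 in HET mice (rho = -0.12). The difference between the Jun slopes of HET and WT mice was -0.11 ± 0.05 (SE, unadjusted p = 0.023, limma adjusted p = 0.97). No member's slope on Fos was called as different between the genotypes (0.0% of all genes by limma, with 927 at an unadjusted p under 0.05) or between the sexes (0.0% of all genes by limma, with 1125 at an unadjusted p under 0.05). In the 37 HET mice alone 2 members (Dusp1, r = 0.86, and Egr1, r = 0.68) were called with Fos, where 4 genes (0.0213% of all genes) were called in either direction. In the WT mice alone 8 members were called, among 190 genes (1.01%). On plate 1 alone 5 were called, among 11 genes (0.0585%).

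**Figure D3:**
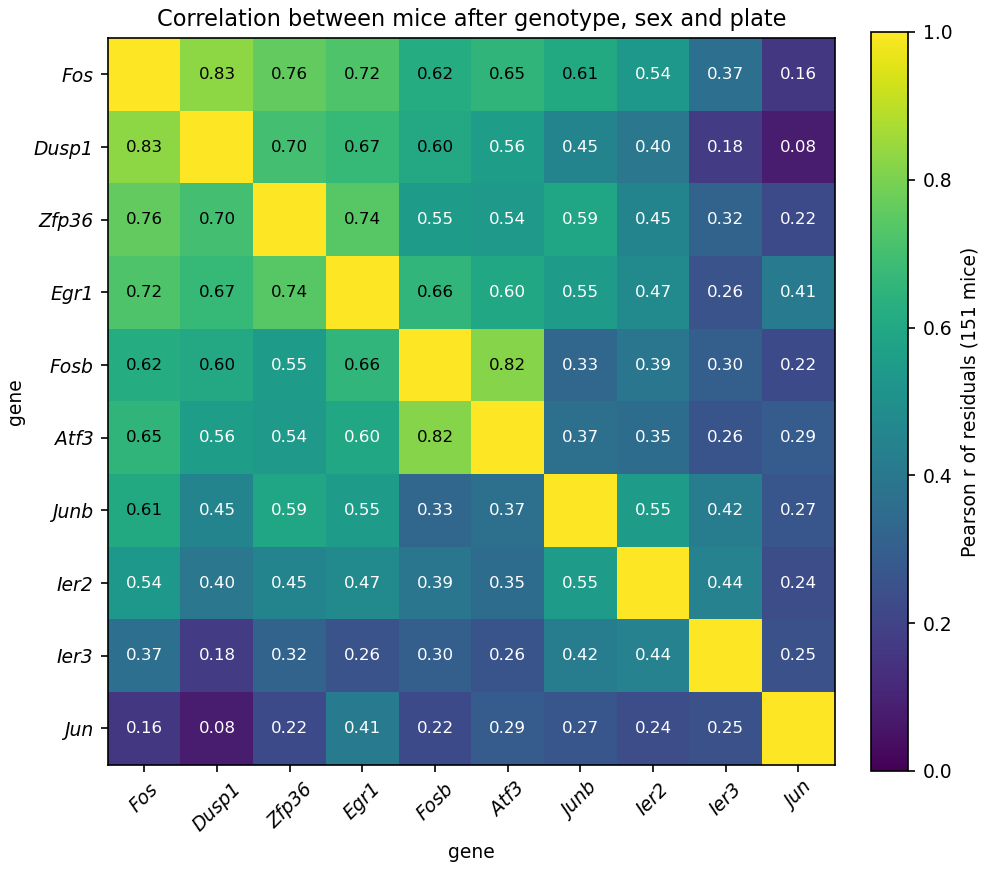
Pearson correlation between mice (colour scale and printed values) for every pair of the 10 genes after removal of genotype, sex and plate. The block of Fos, Dusp1, Zfp36 and Egr1 and the pair Fosb and Atf3 are the brightest cells, and the row of Jun is the darkest, down to 0.08 with Dusp1.

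All 45 pairs of members had a positive correlation, with a median of 0.45 and a range from 0.078 to 0.83, and 20 had r of at least 0.5. The permutation p of r (two-sided, 100000 draws, unadjusted, smallest possible 1e-05) was under 0.05 for 44 pairs, and that of rho for 39. In the fits across all genes, 35 pairs were called in both fits, with each gene of the pair in turn as the covariate. The sign was the same on all plates for 42 pairs. In the WT mice alone, in males alone and in females alone every one of the 45 pairs was positive. In the HET mice alone 8 pairs had r below 0, and 7 of these held Jun (with Fos, Fosb, Egr1, Ier3, Atf3, Dusp1 and Zfp36, r from -0.30 to -0.02). The eighth was Fosb and Ier2, with r = -0.07 in HET and 0.48 in WT mice. Each other member was set against all genes in the same way. Of its 9 partners, 8 were called with Fosb (2.44% of all genes had a positive call), 3 with Jun (3.42%), 9 with Junb (1.25%), 8 with Egr1 (0.76%), 8 with Ier2 (2.79%), 8 with Ier3 (5.81%), 7 with Atf3 (0.346%), 7 with Dusp1 (5.05%) and 8 with Zfp36 (1.75%).

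The 3 partners called with Jun were Egr1 (r = 0.41), Atf3 (r = 0.29) and Junb (r = 0.27). For Jun the values leaned on a few mice. Its correlation with Fosb went from 0.22 to 0.059 when the 2 mice with the most extreme Fosb were left out, and that with Atf3 from 0.29 to 0.11 when the 2 with the most extreme Jun were. The rank correlations of these pairs were 0.0036 and 0.051. The correlation of Jun and Egr1 was 0.31 without the 2 mice most extreme in Jun, and 0.60, 0.25 and 0.32 on plates 1, 2 and 3. It was 0.52 in WT and -0.02 in HET mice. The correlation of Jun with Atf3 was 0.42 in WT and -0.20 in HET mice, and that with Fosb 0.35 and -0.30. By rank, the correlation of Jun with Fosb was 0.09 in WT and -0.30 in HET mice. The differences between genotypes in these 3 pairs were not tested.

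Fosb and Atf3 had r = 0.82 (rho = 0.65, permutation p = 1e-05, the smallest possible). That r was second to Fos and Dusp1, but by rho other pairs, such as Fos and Zfp36 (0.69), were higher. The correlation was 0.87, 0.73 and 0.83 on plates 1, 2 and 3, 0.83 in WT and 0.77 in HET mice, and 0.77 with the 2 mice of most extreme Fosb left out. With Fos also removed it was still 0.70. The correlation of Dusp1 with the other inhibitor, Zfp36, went from 0.70 to 0.20 with Fos removed, and that of Dusp1 with Atf3 from 0.56 to 0.03. Fos and Dusp1 kept r = 0.73 with Fosb removed and 0.74 with Atf3 removed. Zfp36 and Egr1 went from 0.74 to 0.42, and Junb and Ier2 from 0.55 to 0.34, with Fos removed. Junb and Ier2 both lie on chromosome 8, Fosb and Zfp36 on chromosome 7, and Dusp1 and Ier3 on chromosome 17. In a backcross, neighbouring genes tend to be inherited together, and the part of this in the correlations was not tested.

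**Figure D4:**
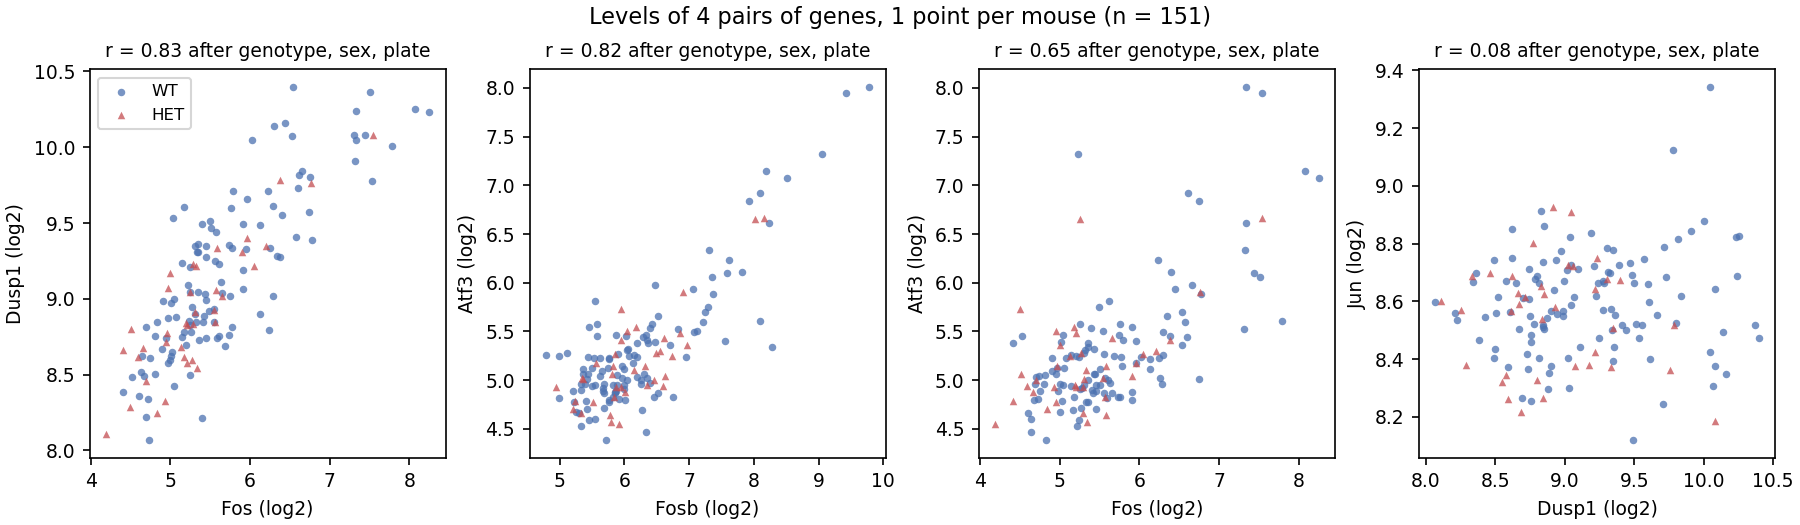
Log2 levels of 4 pairs of genes with 1 point per mouse, WT as circles and HET as triangles. Dusp1 increases with Fos over the whole range, Atf3 separates from the bulk in mice with high Fosb, and Jun and Dusp1 have r = 0.08.

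The median pair correlation was 0.48 in WT and 0.32 in HET mice, and 0.52 in males and 0.37 in females. The difference between these medians was not tested.

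Other rapid response genes were examined through a list of 55, of which 53 were measured. With Fos, 23 of them had a called positive association (0.782% of all genes had one) and 0 a negative one. Their median correlation was 0.23 against -0.01 over all genes. Nr4a1, an orphan nuclear receptor, had r = 0.66 with Fos and ranged from 4.61 through 5.79 to 8.50 between mice. Its correlation was 0.55, 0.76 and 0.67 on the 3 plates. Hbegf, a ligand of the EGF receptor, had r = 0.64, and Ccn1, a matrix protein gene, r = 0.63. Csrnp1, a nuclear protein gene, had r = 0.54, Nfkbia, the inhibitor of NF-kappaB, r = 0.54, and Ptgs2, the inducible cyclooxygenase, r = 0.53. At the other end lay Gadd45b (-0.27, limma adjusted p = 0.059), Ier5 (-0.16) and Gadd45a (-0.15), which were not called.

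**Figure D5:**
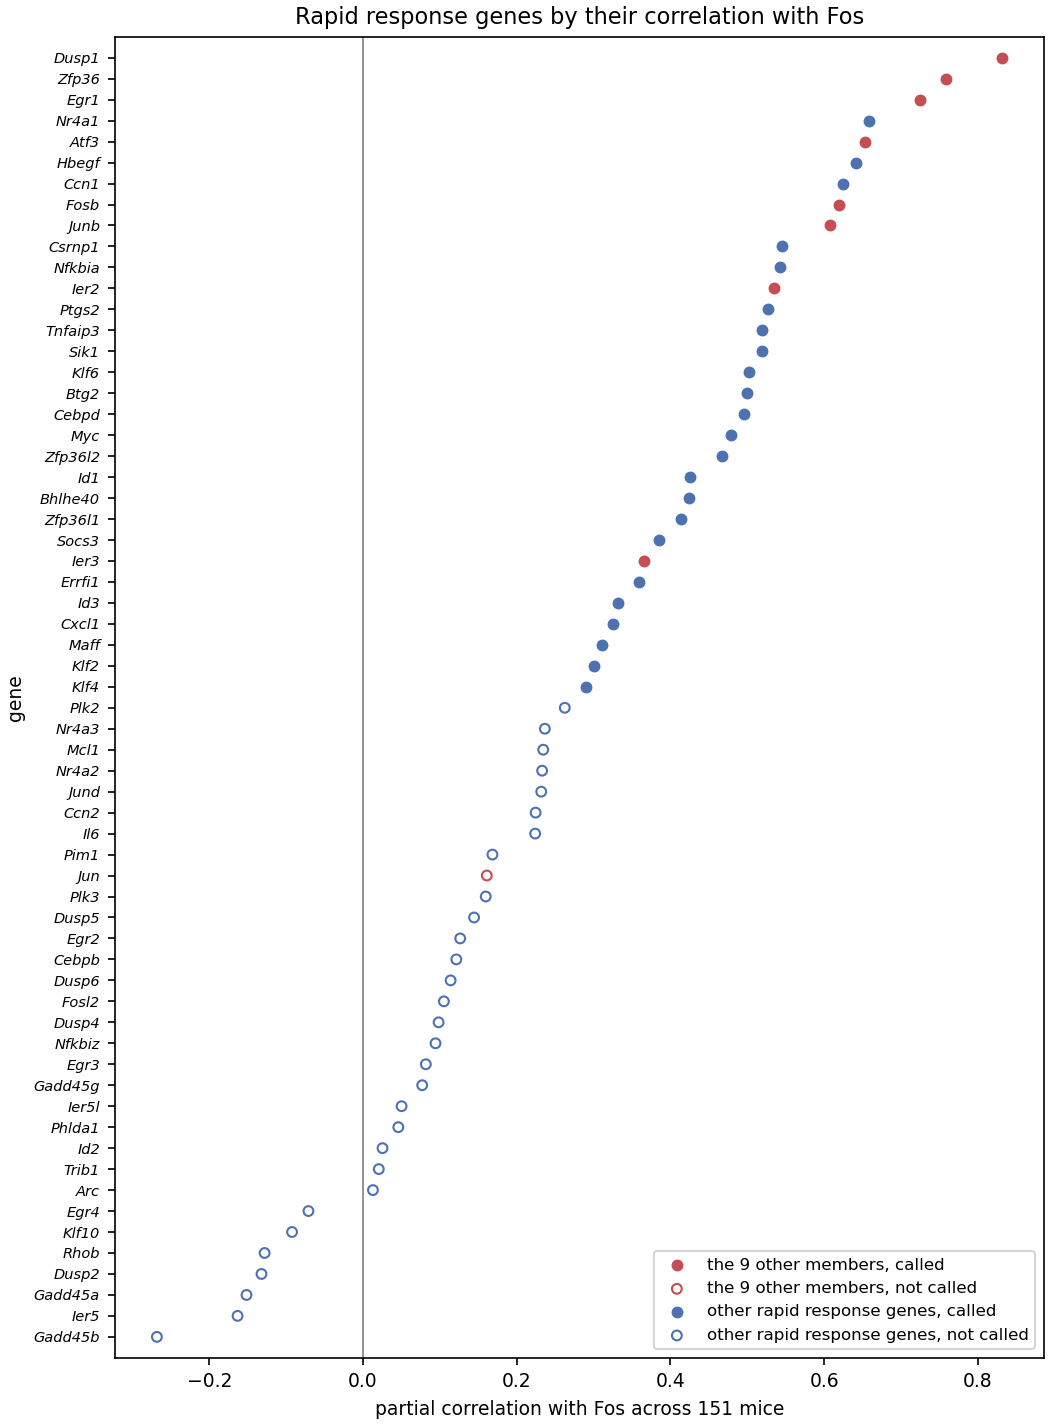
Partial correlation with Fos across mice (horizontal axis) of the 9 other immediate early genes (red) and 53 other rapid response genes (blue), filled where limma called the association. Dusp1 leads at 0.83, 23 blue points are filled, and Gadd45b is lowest at -0.27.

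Among all genes that are not members, the 8 most positively correlated with Fos were these 6 and Spry1, an inhibitor of receptor tyrosine kinase signalling (r = 0.53), and Rgs1, a regulator of G protein signalling (r = 0.52). The 4 most negatively correlated were Zfp59, a zinc finger gene (r = -0.42), 4632427E13Rik (r = -0.42), Mir200b, the gene of an epithelial microRNA (r = -0.42), and Rbm10, an RNA-binding protein gene (r = -0.39). For Zfp59 the value was -0.13 on plate 1 against -0.55 and -0.56 on plates 2 and 3. Measured by the mean correlation with all 10 members over all mice used, the most similar genes were Nr4a1 (0.53), Hbegf (0.50), Ccn1 (0.46), Spry1 (0.44), Btg2 (0.44) and Nfkbia (0.44). Nr4a1 was closest to Fosb (r = 0.82) and Atf3 (r = 0.72), whereas Btg2, an antiproliferative gene, was closest to Junb (r = 0.61) and Zfp36 (r = 0.58) and had the higher correlation with Jun (0.40 against 0.17 for Nr4a1).

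None of 17 measured upstream regulators, the MAP kinases and the SRF and CREB families that act on these promoters through protein activity, was called with Fos (r from -0.26 to 0.22). Some were called with other members and are named here after their values were seen. Mapk8, the stress kinase JNK1, was called with Fosb (r = 0.38) and Dusp1 (r = 0.24). Mapkapk2, a kinase downstream of p38, was called with Ier3 (r = 0.47), Ier2 (r = 0.34), Junb (r = 0.28), Zfp36 (r = 0.28) and Fosb (r = 0.26). Of the 17 regulators, 2 had a positive call with Fosb (2.44% of all genes had one). With Dusp1 (5.05%), Ier3 (5.81%), Ier2 (2.79%), Junb (1.25%) and Zfp36 (1.75%) it was 1 each. For Dusp1 and Ier3 that is close to the share over all genes. Negative calls were those of Mrtfb, a coactivator of SRF, with Ier2 (r = -0.34, with 1.71% of all genes called negative) and of Mapk9 with Junb (r = -0.28, with 0.718% called negative). Of 8 heat shock genes 1 was called with Fos, the co-chaperone gene Dnajb1 (r = 0.36, with 0.782% of all genes called positive). Of 10 glucocorticoid targets 2 were called with Fos, Sgk1, a kinase (r = 0.39), and Per1, which is also a clock gene (r = 0.36). Of 10 circadian clock genes 3 were called, with the smallest p-values for the repressors Cry1 (r = 0.34) and Cry2 (r = 0.32). Dusp1, itself a known glucocorticoid target, was called with 5 glucocorticoid targets (r = 0.57 for Per1) and 6 clock genes (5.05% of all genes had a positive call). Fosb was called with 4 clock genes (2.44% of all genes had a positive call), the highest being Per2 (r = 0.62), named after its value was seen, followed by Cry1 (r = 0.54). The labels used here give no time of day for the sampling.

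Few cell type markers were called with Fos. Of 6 Langerhans cell markers 3 had a positive call (0.782% of all genes had one). All were antigen presentation genes: Cd74 (r = 0.33), H2-Ab1 (r = 0.32) and H2-Aa (r = 0.29). Cd207, Epcam and H2-Eb1 of the same list were not called. The lists for keratinocytes, hair shaft, sebaceous gland, fibroblasts, endothelium, smooth and skeletal muscle, fat, macrophages, T cells, mast cells, neutrophils, melanocytes, nerve and red cells had 0 called genes. The 9 hair shaft markers had correlations with Fos between -0.25 and -0.18, with 0 called. All 9 hair shaft markers were called negative with Dusp1 (r from -0.37 to -0.30, with 7.19% of all genes called negative). With Dusp1, 5 of 7 mast cell markers were called positive (r from 0.23 to 0.42 for these 5, with 5.05% of all genes called positive). With Zfp36, 6 of the 9 hair shaft markers were called negative (r from -0.28 to -0.26, with 1.29% of all genes called negative). With Ier2, 7 of 8 skeletal muscle markers (r from -0.30 to -0.25) and 4 of 7 smooth muscle and pericyte markers (r from -0.34 to -0.25) were called negative. Over all genes 1.71% were called negative with Ier2. Ier3 had called positive associations with 5 of 7 basal keratinocyte markers (median r = 0.29, with 5.81% of all genes called positive). The same held for 3 of 6 differentiated keratinocyte markers (median r = 0.24). Called negative with Ier3 were 5 of 8 fibroblast markers (median r = -0.25, with 4.38% of all genes called negative). So were 4 of 7 smooth muscle and pericyte markers (r from -0.27 to -0.26). With scores of skeletal muscle, fat, fibroblast and hair shaft markers as covariates, the same count of 8 members was called with Fos, and the correlation of Dusp1 with Fos was 0.84, of Egr1 0.74, of Fosb 0.60 and of Ier3 0.32. These 4 lists had 0 genes called with Fos, and Langerhans and mast cell scores were not among the covariates.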

How the data were processed

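The deposited values are log2 expression per probe set after RMA, per the submitters' processing notes, and the sources used here give neither the RMA version nor whether plates were adjusted for afterwards. Per the labels' protocols, total RNA from snap-frozen tail skin was labelled with biotin and hybridised to Affymetrix arrays. Of 35556 probe sets, 171 were empty, 21201 had 1 gene symbol, 1881 several and 12303 none in the annotation given. For each gene the probe set with the highest mean that was annotated with that gene only was used, giving 18810 genes. The 2 arrays labelled as outliers were left out, which left 151 mice (114 WT and 37 HET). The sources used here name no genome build for the array. Promoters are from RefSeq's GRCm38.p6 table.

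Differences, slopes and plate effects came from limma (version 3.58.1; lmFit, then eBayes with its trend option) under R 4.3.3, with files read by the data.table package (version 1.17.8). The model held genotype, sex and plate, with Benjamini-Hochberg adjustment over all genes. Adding the Fos level as a covariate gave the associations, and each other member was used in the same way (10 fits in all). The spread was tested on absolute residuals. Pairwise correlations used residuals after genotype, sex and plate, with two-sided permutation tests, under Python 3.11.15 with scipy 1.17.1, numpy 2.4.6 and pandas 2.3.3, and plots used matplotlib 3.10.9. The fits and the permutation test were tested on simulated data. The number of mice sets the precision, and nothing in the labels beyond 1 array per mouse describes litters, so related mice are treated as independent.

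Besides the 10 members, 22 gene lists (237 genes, 210 measured) were used. The members and lists were chosen with earlier results of these data known. Most genes outside the 10 were named by rule: the 8 most positive and 4 most negative with Fos, the 6 with the highest mean correlation with the members, the 6 highest and 3 lowest of the rapid response list, and up to 2 called genes of each other list with the smallest p in the association with Fos. The markers named for a call by sex, the upstream regulators, Per2 and the Langerhans markers other than Cd74 and H2-Ab1 were named after their values were seen. Plate p-values were unusually few at the low end, with 152 genes (0.808%) at an unadjusted p under 0.05. The Hras transcript is not reported here. Alternatives changed the normalization, the outlier arrays, the probe set, the variance trend, a filter on dim genes and the plate term, or used plates, sexes or genotypes alone, composition scores as covariates or fewer mice. Separate slopes by genotype and sex, pair correlations within these groups and correlations with another member removed were added after seeing the data.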

Additional observations from a re-analysis of the deposited data

How the results depend on the processing

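No paired analysis was possible because replicate numbers only name mice and do not match animals across genotypes. The counts of members called for genotype, sex and plate stayed at 0 under every alternative run. For single members, all genotype values but 2 and all sex values but 4 kept their direction. The exceptions were Ier3 for genotype (0.0222 on plate 3 and 0.0498 in females), and for sex Dusp1 (-0.107 on plate 1 and -0.0254 on plate 3), Jun (-0.0705 on plate 2) and Ier3 in HET mice (-0.0524). The interaction of Junb changed from 0.0094 to -0.0084 with arrays centred on their medians.

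For the association with Fos, 8 members were called under all alternatives except 5 with dim genes left out (6 of the 9 were tested then), 5 on plate 1, 7 on plate 2, 7 on plate 3, 7 in females and 2 in HET mice. The plates, sexes and genotypes alone are smaller samples. The number of all genes called with Fos was 245, and 431 with arrays centred on their medians (the cause was not tested), 11, 38 and 35 on plates 1, 2 and 3, 118 in males, 14 in females and 4 in HET mice. The correlation of Jun with Fos was -0.001 on plate 2 and -0.189 in HET mice. The correlation of Ier3 and Dusp1 was -0.0226 on plate 2, and that of Jun and Dusp1 -0.0477 on plate 3. The median over the 45 pairs was 0.45, and 0.487 with centred arrays, 0.486 on plate 2 and 0.413 without the 2 farthest mice.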
